A study of Macaca mulatta with 5 samples.

Results

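The enzymes considered here turn acetyl units into cholesterol. Of the 7 genes HMGCS1, IDI1, FDFT1, SQLE, LSS, CYP51A1 and DHCR7, chosen by gene symbol, 5 had a probe set named for them alone, with 10 probe sets in all, among 14132 named genes and 52865 probe sets. HMGCS1 and LSS have no entry in the annotation used here and were not analysed here. The arrays came from rhesus macaque embryonic stem cells of line 366.4, carried through a staged culture intended to yield serotonin neurons, and each stage was a separate array hybridised with total RNA. ESC were undifferentiated cells at passage 13, propagated on mouse embryonic fibroblasts (MEF). EB were embryoid bodies of 1 to 1.5 mm collected after 6 to 8 days. N1 were spheres of 0.25 to 1.25 mm kept for 7 to 9 days in DMEM/F12 medium with N2 supplement, N2 had FGF4 added to that medium for a further 7 to 9 days, and N3 were matured in reduced growth factor (GFR) wells without FGF4. No genetic change is named for any stage, and all 5 come from the same line, so they speak for that line only.

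Cholesterol is built in 2 stretches. Early steps make small isoprenoid units in the mevalonate route, which also feed protein prenylation, dolichol and ubiquinone, and later steps join these units into squalene, close the rings and trim the sterol. The transcription factor SREBP-2 (SREBF2), which is held back by INSIG proteins when sterols are plentiful, is known to switch on most of these genes together. Developing neural tissue makes its own cholesterol, because the brain takes up little from blood lipoproteins.

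With 1 array per stage there is no test, SE or p-value, and no difference below has a replicate check. Signals are array intensities on a linear scale, rescaled so that each array had a trimmed mean of 500. A log2 ratio is the later stage minus the earlier one after values under 100 were raised to that floor, and "2-fold" is the size used to count genes. All 10 member probe sets lay above the floor on every array, so no member ratio is a bound. The rhesus array carries several probe sets for many genes, and a gene is represented by its brightest. Counts over the 10 member probe sets take a gene with several of them more than once, so they are not counts of separate genes. Where each probe set lies along its transcript is not given in the sources used here. In whole cultures, fewer cells of a type and less RNA per cell cannot be told apart.

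IDI1, the isomerase that prepares isoprenoid units for joining, was lowest in ESC and highest in N1 on each of its 3 probe sets. The brightest (MmuSTS.168.1.S1_x_at) read 1249.6 in ESC and 3768 in EB, then 5995 in N1 and 3008 in N2, and 3262 at N3. EB exceeded ESC by 3.02-fold (log2 ratio 1.59) and N1 exceeded ESC by 4.80-fold, whereas N2 lay 1.99-fold below N1. The next probe set (MmuSTS.168.1.S1_s_at) gave 804 in ESC and 2395 in EB, then 3806 in N1 and 2370.0 in N2, and 2249.6 at N3. Both carry the suffix that Affymetrix gives to probe sets able to bind related transcripts. The third, without that mark, stood at 404 in ESC and 414 in EB, then 1538 in N1 and 453 in N2, and 579.6 at N3. On it, EB and ESC were alike (log2 ratio 0.04) and N1 alone stood high, at 3.71-fold over EB and 3.40-fold over N2. The step from ESC to EB therefore rested on the marked probe sets, and the peak in N1 was shared by all 3.

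FDFT1, squalene synthase, makes the first molecule committed to sterols. Its brightest probe set (MmugDNA.39939.1.S1_at) read 7413 in ESC and 10710.0 in EB, then 11409 in N1 and 12771 in N2, and 12441 at N3. ESC was lowest and the other 4 stages lay close together, with EB 1.44-fold over ESC and N3 1.68-fold over ESC. The other probe set (MmugDNA.10742.1.S1_at) gave 2966 in ESC and 2231 in EB, then 4166 in N1 and 2654 in N2, and 3400.0 at N3. It placed EB below ESC (log2 ratio -0.41) and N1 1.87-fold above EB.

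SQLE, squalene epoxidase, adds the oxygen that precedes ring closure and is a rate-limiting step of the sterol branch. On the brighter probe set (MmugDNA.43604.1.S1_at) it read 1846 in ESC and 3571 in EB, then 4348 in N1 and 4668 in N2, and 4682 at N3, so that each later stage was at or above the one before. EB was 1.94-fold and N3 2.54-fold over ESC. The other probe set (MmugDNA.37725.1.S1_at) read 585 in ESC and 269.7 in EB, then 605 in N1 and 313 in N2, and 635 at N3. Here EB was 2.17-fold below ESC (log2 ratio -1.12, against 0.95 on the brighter probe set), and N3 and ESC differed by 1.09-fold. The direction of SQLE between ESC and EB thus depended on the probe set.

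CYP51A1, the lanosterol demethylase that takes the first methyl group off the newly closed rings, had the largest difference from ESC among the members. Its brighter probe set (MmuSTS.4025.1.S1_at) read 529 in ESC and 2277 in EB, then 3101 in N1 and 3279.7 in N2, and 2868 at N3. EB was 4.31-fold over ESC (log2 ratio 2.11) and N2 6.20-fold over ESC, while N2 lay within 1.14-fold of both N1 and N3. The other probe set (MmugDNA.10139.1.S1_at) read 952 in ESC and 1464 in EB, then 2028 in N1 and 1819 in N2, and 1846 at N3. It had the same lowest stage with smaller ratios, at 1.54-fold for EB and 1.94-fold for N3 over ESC. CYP51A1 was the member whose probe sets, neither of them marked as able to bind related transcripts, both placed every later stage above ESC.

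DHCR7 catalyses the reduction that gives cholesterol itself, and its loss in humans causes Smith-Lemli-Opitz syndrome. It had 1 probe set (MmugDNA.40849.1.S1_at), which read 1207.5 in ESC and 512 in EB, then 1008 in N1 and 440.1 in N2, and 769 at N3. ESC was highest and N2 lowest, and neighbouring stages alternated. EB was 2.36-fold below ESC, N1 1.97-fold above EB, N2 2.29-fold below N1 and N3 1.75-fold above N2. No member other than DHCR7 was highest in ESC on any probe set.

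**Figure D1:**
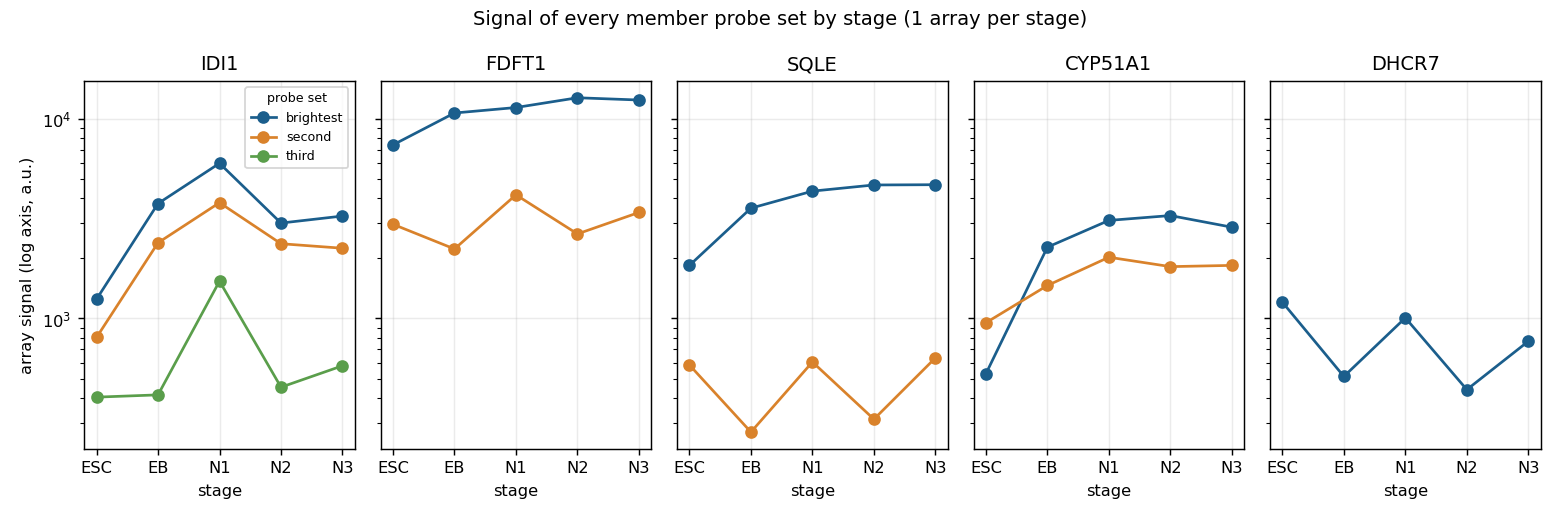
Array signal on a log axis (arbitrary units) for every probe set of the 5 enzymes at the 5 stages, 1 array each; line colours give the order of brightness within a gene. The brightest probe sets of IDI1, FDFT1, SQLE and CYP51A1 were lowest in ESC, IDI1 was highest in N1, and DHCR7 alternated between 1207.5 in ESC and 440.1 in N2.

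The alternation of DHCR7 was also seen on the dimmer probe sets of FDFT1 and SQLE, and it ran beside a measure of RNA quality. Each of these 3 probe sets was lower in EB than in ESC, higher in N1, lower in N2 and higher in N3. The ratio of 3' to 5' signal for the actin control, which grows when labelled RNA is short, was 1.73 in ESC and 15.2 in EB, then 5.43 in N1 and 25.2 in N2, and 8.63 at N3. The GAPDH ratio was 1.94, 2.78, 1.69, 7.10 and 2.11 in the same order. High ratios thus fell in EB and N2, where the 3 probe sets were low, and DHCR7 placed the 5 stages in the exact reverse of their actin ratios. Of 13000 named probe sets above the floor on all arrays, 18.3% showed the same alternation and 3.21% the exact reverse order. The part of RNA quality in these values was not tested.

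**Figure D2:**
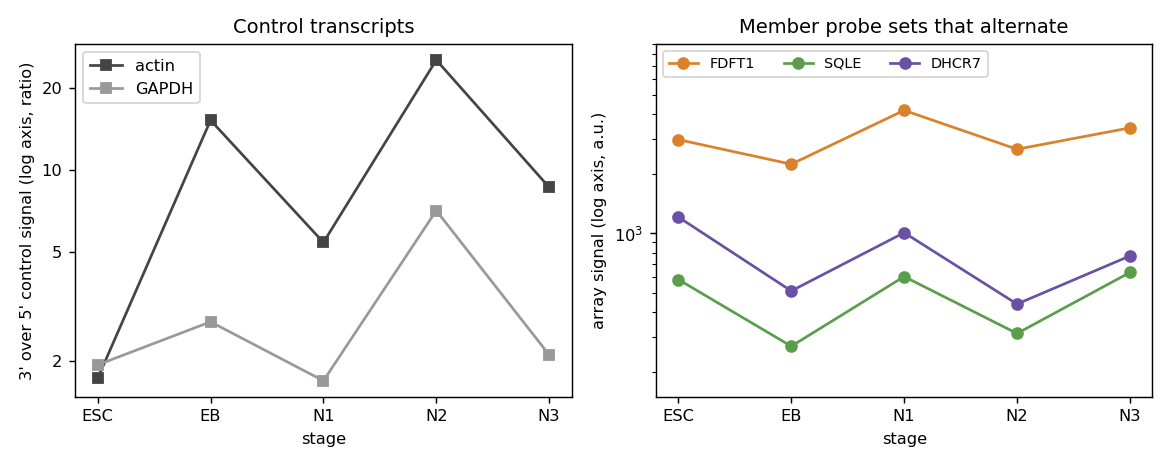
Left, the ratio of 3' to 5' control signal for actin and GAPDH by stage (log axis). Right, array signal (log axis, arbitrary units) of DHCR7 and of the dimmer probe sets of FDFT1 and SQLE, which were low in EB and N2, the stages with actin ratios of 15.2 and 25.2.

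EB against ESC spans the move from feeder-grown colonies to aggregates. IDI1 and CYP51A1 were at least 2-fold higher and DHCR7 at least 2-fold lower, while SQLE (1.94-fold) and FDFT1 (1.44-fold) were higher by less. Of all 10978 genes measured, 12.1% were at least 2-fold higher and 11.8% at least 2-fold lower. The members' median log2 ratio was 0.95, beside -0.06 for all measured genes. Over the 10 probe sets, 3 were at least 2-fold higher and 2 lower, against 10.8% and 16.6% of named probe sets, and 7 were higher by any amount, against 41.5%. The spread between the 2 brightest probe sets of a gene, expressed as an SD of log2 ratios over 4446 genes, was 0.75 in this comparison. By brightest probe set the ratios of IDI1, SQLE, CYP51A1 and DHCR7 exceeded it in size, and that of FDFT1 did not. The other probe set of CYP51A1 (0.62) and the third of IDI1 (0.04) did not, and the dimmer of SQLE exceeded it downwards (-1.12). That SD measures disagreement between probe sets and not between replicates. With a gene taken as its second brightest probe set, the median of the members was -0.41, beside -0.22 for all measured genes. DHCR7 has 1 probe set, which was used again there. With every array brought to the same median signal, the median ratio of all genes stood at 0.41, 4 members were past 2-fold higher and 0 lower, and the log2 ratio of DHCR7 was -0.75. The actin ratio was 1.73 in ESC and 15.2 in EB, and its part in the difference was not tested. How far mouse feeder RNA contributed to the ESC signals was not tested.

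N1 against EB followed the embryoid bodies into neural selection. All 10 member probe sets were higher in N1, by 1.07-fold to 3.71-fold. Of named probe sets, 55.4% were higher in N1. At least 2-fold higher were 2 of the 10, the third of IDI1 and the dimmer of SQLE, and 0 were lower, against 7.37% and 1.87%. By brightest probe set 0 of 5 members passed 2-fold, where 5.15% of genes were higher and 2.2% lower, and DHCR7 came nearest. The median of the members was 0.45, beside -0.02 for all measured genes, with an SD between probe sets of 0.45. N1 was the highest stage for 5 of the 10 probe sets, namely all 3 of IDI1 and the dimmer ones of FDFT1 and CYP51A1, against 12.5% of named probe sets above the floor on all arrays. The direction depended on the scaling for 2 members. With the same median signal on every array, which put the median ratio of all genes at -0.37, the brightest probe sets of FDFT1 (-0.28) and SQLE (-0.08) were below 0. With hybridisation controls as the reference, which put it at 0.41, IDI1 and DHCR7 passed 2-fold. The actin ratio was 15.2 in EB and 5.43 in N1, and its part in the difference was not tested.

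The FGF4 expansion stage, N2, was set against the N1 spheres from which it was grown. FDFT1, SQLE and CYP51A1 were nearly level, at log2 ratios of 0.16, 0.10 and 0.08, whereas IDI1 was 1.99-fold and DHCR7 2.29-fold lower. DHCR7 was thus the 1 member at least 2-fold lower, and 0 were higher, where 6.53% of genes were lower and 5.06% higher. On the dimmer probe sets SQLE was 1.94-fold and FDFT1 1.57-fold lower. Of the 10 probe sets, 2 were at least 2-fold lower and 0 higher, against 9.78% and 4.46% of named probe sets, and 3 were higher by any amount, against 41.5%. The members' median was 0.08 by brightest and -0.68 by second brightest probe set, beside -0.04 and -0.17 for all measured genes. With hybridisation controls as the reference, which put the median ratio of all genes at -0.57, FDFT1 (-0.41), SQLE (-0.47) and CYP51A1 (-0.50) were lower in N2. The actin ratio was 5.43 in N1 and 25.2 in N2.

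N3 against N2 spans the move to GFR wells and the removal of FGF4, which cannot be told apart. By brightest probe set, IDI1, FDFT1, SQLE and CYP51A1 differed by at most 1.14-fold, and DHCR7 was 1.75-fold higher. No member reached 2-fold in either direction, where 4.78% of genes were higher and 2.19% lower. The 1 probe set past 2-fold was the dimmer of SQLE, at 2.03-fold higher, against 6.48% of named probe sets higher and 1.81% lower. By any amount 7 of the 10 were higher, against 53.4%. DHCR7 and the dimmer SQLE probe set are among those that alternated. The actin ratio was 25.2 in N2 and 8.63 in N3, and its part in the difference was not tested.

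Matured N3 cells were also set against the ESC from which the culture began, a comparison that shares the ESC array with the first. CYP51A1 was 5.42-fold, IDI1 2.61-fold and SQLE 2.54-fold higher. Those are 3 of 5 members, with 0 lower, where 17.2% of genes were higher and 16.4% lower. Without its marked probe sets, the log2 ratio of IDI1 was 0.52 and the count was 2. The actin ratio was 1.73 in ESC and 8.63 in N3. FDFT1 was 1.68-fold higher and DHCR7 1.57-fold lower. Of the 10 probe sets, 4 were at least 2-fold higher and 0 lower, against 15.9% and 19.0% of named probe sets. By any amount 9 were higher in N3, against 42.1%, although the dimmer ones of SQLE and FDFT1 were higher by no more than 1.15-fold. The members' median was 1.34 by brightest and 0.20 by second brightest probe set, beside -0.13 and -0.24 for all measured genes. The SD between probe sets was 0.82. ESC was the lowest stage for 7 of the 10 probe sets, against 28.8% of named probe sets above the floor on all arrays. The 7 were all 3 of IDI1, both of CYP51A1 and the brighter ones of FDFT1 and SQLE.

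**Figure D3:**
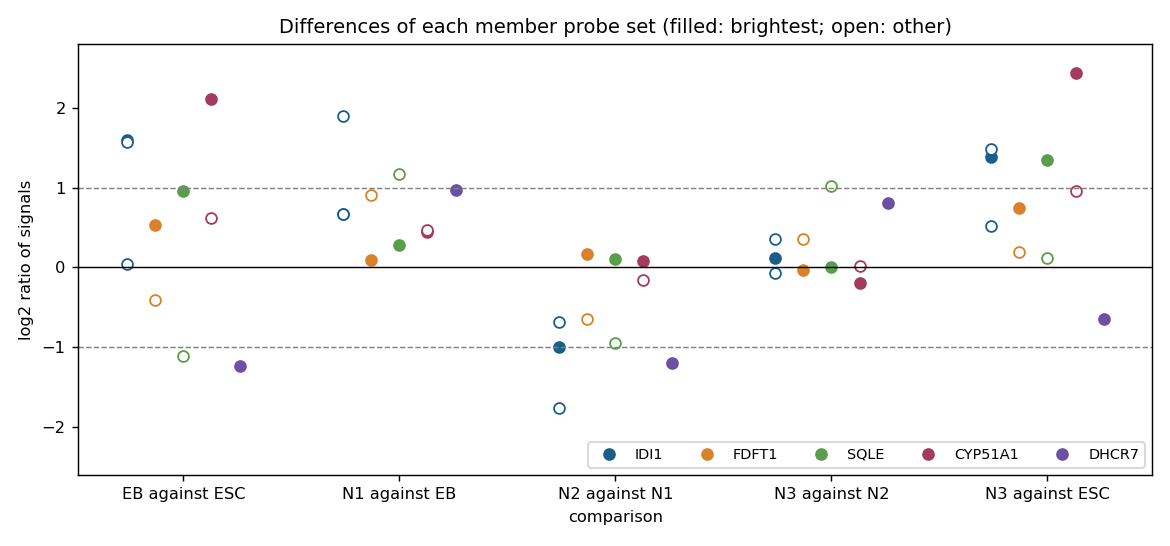
Log2 ratio of signals for each member probe set in the 5 comparisons; filled points are a gene's brightest probe set, open points its others, and dashed lines mark 2-fold. All points lie above 0 for N1 against EB at this scaling (with equal array medians FDFT1 and SQLE lie below, at -0.28 and -0.08), and the filled points of CYP51A1 reach 2.11 for EB and 2.44 for N3 against ESC.

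In the median, different members were farther apart in profile than probe sets of the same gene usually were. Within SQLE and CYP51A1, however, probe sets were about as far apart or farther. How far apart other pairs of genes usually lay was not measured. The distance between 2 probe sets was taken as the root mean square difference of their log2 signals over the 5 arrays, each centred on its own mean. Between the brightest probe sets of different members its median was 0.63 over 10 pairs. FDFT1 and SQLE were closest, at 0.23, and CYP51A1 and DHCR7 farthest apart, at 1.40. For 2974 genes with 2 probe sets above the floor on all arrays, the median between those was 0.40. The distance within a gene was 0.40 for FDFT1, 0.62 for CYP51A1 and 0.80 for SQLE. For IDI1 it was 0.12 between the marked probe sets, and these lay 0.55 and 0.60 from the third. The dimmer SQLE probe set lay closer to DHCR7 (0.28) than to its own partner. Highest over lowest stage spanned a median of 2.74-fold for the 5 members and 2.10-fold for 8368 genes above the floor throughout.

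By the same distance, the genes outside the sterol lists nearest to each member were sought among 8330 genes over the 5 arrays. They were MMP11 (0.10) and VASP (0.16) for IDI1, TMEM42 (0.03) and TADA1 (0.03) for FDFT1, and FBXO8 and ZNF75D (both 0.05) for SQLE. TENT5A (0.11) and KLHL5 (0.13) were nearest to CYP51A1, and RPS6KA6 (0.09) and ZNF620 (0.10) to DHCR7. Each profile has 5 points.

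The other sterol steps between CYP51A1 and DHCR7 were higher after ESC. Of 8 listed genes, 5 had a probe set, and 4 of these were at least 2-fold higher in EB than in ESC and 0 lower, where 12.1% and 11.8% of all genes were. EBP, the sterol isomerase, was 3.56-fold higher in EB (1084 in ESC and 3858 in EB), TM7SF2, a sterol reductase, 3.22-fold, NSDHL, which removes methyl groups, 2.91-fold and HSD17B7, which works with it, 2.36-fold. LBR, the lamin B receptor with sterol reductase activity, was 1.63-fold higher. The other probe set of EBP gave 4.04-fold. Both probe sets of EBP and the brightest of TM7SF2 are marked as able to bind related transcripts. The other probe sets measured for TM7SF2 and NSDHL gave log2 ratios of -0.01 and 0.19, and those of HSD17B7 -0.39 and 0.74. In N3 against ESC 4 of these 5 were at least 2-fold higher, with a median of 1.08, where 17.2% of all genes were. MSMO1 and SC5D were not analysed here.

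The mevalonate steps around IDI1 differed less. Of 6 listed genes 4 were measured. By brightest probe set 0 passed 2-fold in EB against ESC (median 0.16), where 12.1% of all genes were higher and 11.8% lower. FDPS, which makes farnesyl diphosphate, read 1483 in ESC and 1471 in EB, then 1169 in N1 and 2028 in N2, and 1957 at N3, and was thus lowest in N1, where IDI1 was highest. PMVK, a mevalonate pathway kinase, was 2.03-fold lower in N2 than in N1. The dimmer probe set of MVD, the mevalonate decarboxylase, alternated as DHCR7 did, at 898 in ESC and 428 in EB, then 1008 in N1 and 465 in N2, and 679 at N3. Among 7 measured genes of the isoprenoid side branches 0 passed 2-fold in EB against ESC by brightest probe set (median -0.31), where 12.1% of all genes were higher and 11.8% lower. Dimmer probe sets were past 2-fold lower for FNTB (-2.10) and PGGT1B (-1.05), which encode prenyl transferase subunits, and for DHDDS (-1.10), of dolichol synthesis. In EB those of FNTB (109.6) and PGGT1B (120.0) were close to the floor. Those of FNTB and DHDDS alternated as DHCR7 did.

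Among 6 measured genes of sterol sensing, EB exceeded ESC by 2-fold or more for 4 and fell short of it by that much for 0, where 12.1% and 11.8% of all genes did. SREBF1, the related factor better known for fatty acid genes, was lower in EB, at 859 in ESC and 468 in EB (log2 ratio -0.88, and -0.97 on its other measured probe set). INSIG1, which retains the SREBP escort in the endoplasmic reticulum and is itself an SREBP target, read 814 in ESC and 2238 in EB, then 3503 in N1 and 3558 in N2, and 3143 at N3. EB was 2.75-fold over ESC, and its other probe set gave 2.42-fold. INSIG2 was 2.92-fold higher in EB on its brighter probe set and 2.17-fold lower on the other. SCAP, the escort protein, was 2.10-fold higher and MBTPS2, a protease that releases SREBP, 2.45-fold higher, with a log2 ratio of -0.86 on its other probe set. SREBF2 read 1853 in ESC and 1899.8 in EB, then 2068 in N1 and 2467 in N2, and 3706 at N3, so ESC and EB were level and N3 lay just past 2-fold over ESC. Its other measured probe sets were lower in EB, at log2 ratios of -0.74 and -1.83, and in N3 against ESC the others gave -0.56, 0.10 and 1.10. Among uptake and transport genes, STARD4, a cholesterol carrier, was 2.63-fold and the lysosomal lipase gene LIPA 2.36-fold higher in EB, and NPC2, a lysosomal cholesterol carrier, 2.22-fold lower.

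**Figure D4:**
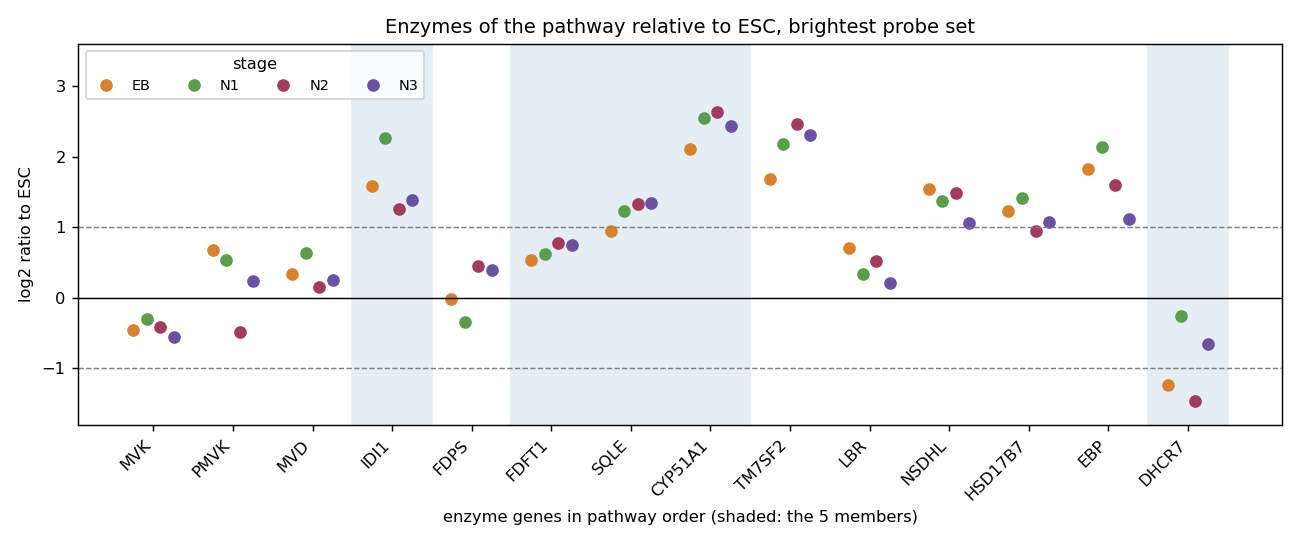
Log2 ratio of EB, N1, N2 and N3 to ESC for the brightest probe set of 14 enzyme genes in pathway order; shading marks the 5 members and dashed lines mark 2-fold. All genes from FDFT1 to EBP lie above 0 at every stage, MVK lies below 0 at every stage, and DHCR7 lies below 0 at all 4 stages.

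Signals of marker genes listed for several cell types also differed between these stages. Listing a cell type does not show that it was present. Summed signal of 6 measured liver-like endoderm markers of 8 listed was 2016 in ESC and 53057 in EB, then 52018 in N1 and 18365 in N2, and 3428 at N3, with ALB and TTR not analysed here. FGB (26301) and APOA1 (20596) made up most of the EB sum, and AFP went the other way, at 991 in ESC and 601 in EB. For 5 measured neuron markers of 6 the sum was 5135 in ESC and 3586 in EB, and reached 56743 in N3. By brightest probe set TUBB3 fell between ESC (3684) and EB (663), and between N1 (2852) and N2 (1819). For 5 pluripotency markers of 6 the sum ran from 56477 in ESC to between 8357 and 17773 later. POU5F1 read 28621 in ESC and was below the floor in N3, where SOX2 made up 14978 of the sum. NANOG went the other way, at 1047 in ESC and 2155 in N3, and SALL4 read 2395 in ESC, 2892 in EB and 579 in N3. Astrocyte markers (5 of 6) summed to 1389.9 in ESC and 8069 in N3. SLC1A3 read 408 in ESC and 4452 in N3, and SLC1A2 and S100B rose from below the floor to 2340 and 513. GFAP went the other way, from 911 to 684, and ALDH1L1 was below the floor in both. Fibroblast markers (6 of 6) summed to between 34556 and 57005. Fibroblast genes went opposite ways between ESC and EB, with LUM below the floor in ESC and at 17532 in EB, DCN below the floor and at 7189, TAGLN at 35825 and 4660, and THY1 at 5443 and 628. Neural progenitor markers (3 of 6) summed to between 3927 and 20887, most of it SOX2, which pluripotent cells also express (19736 in ESC and 14978 in N3), whereas PAX6 read 753 in ESC and 3322 in N3 and HES5 was below the floor in ESC and at 2586 in N3. The sums of 2 oligodendrocyte markers of 6 and 3 steroid-making markers of 4 never exceeded 558. Of 7 measured serotonin neuron markers of 9, the serotonin synthesis enzymes TPH2 and TPH1, and also LMX1B, were below the floor on all arrays. The sum of the 7 was 713 in ESC, 4461 in EB and 1271 in N3. GATA3, which is not particular to these neurons, made up 348 of it in ESC, 3911 in EB and 895 in N3. The part of cell make-up in the enzyme values was not tested.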

How the data were processed

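Per the labels' protocols, RNA from each of 5 stages was extracted with a Qiagen microkit, labelled with biotin and hybridised to 1 array. The authors deposited linear intensities. The submitters' processing notes name GCOS 1.0. Neither its algorithm nor its scaling target is stated there. Deposited 2% trimmed means lay between 199.1 and 199.3, so arrays had already been scaled.

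Here 158 control probe sets were left out, arrays were brought to a trimmed mean of 500, a floor of 100 was set and log2 taken. Of 52865 probe sets, the platform annotation, which can be old, gave 24969 exactly 1 gene symbol and 361 several, and left 27535 unnamed. For 4 of the 5 members the Entrez identifier matched the RefSeq gene table; that of DHCR7 matched by symbol only. A gene was its brightest probe set. Genes at or under the floor on both arrays of a comparison were left out of it. Counting was tested on simulated data.

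The members and all gene lists were chosen with earlier results of these data known. Members were named on every probe set; from the other lists, 5 genes whatever their value (some are not reported here) and any gene 2-fold different between adjacent stages at 200 or more on the brighter array; other list genes are named for contrast, and were chosen after their values were seen. For each member the 2 nearest genes were named. Alternatives were 4 scalings, 2 floor settings, 3 choices of probe set and a 1.5-fold threshold. Python 3.11.15, pandas 2.3.3 and scipy 1.17.1 were used. No coordinates or sequences are given.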

Additional observations from a re-analysis of the deposited data

How the results depend on the processing

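No paired analysis was possible because each stage is 1 array, and no replicate could be left out. In EB against ESC the members' median of 0.95 became 0.060 when a gene's probe sets were summarised by their median and -0.41 with the second brightest. In N1 against EB it went from 0.45 to 0.91 with hybridisation controls and 0.90 with the second brightest probe set. In N2 against N1 it went from 0.08 to -0.50 with hybridisation controls and -0.68 with the second brightest, and in N3 against ESC from 1.34 to 0.20 with the second brightest. The count of members past 2-fold was 0 in N1 against EB, 2 with hybridisation controls, 1 with the second brightest, 1 without the probe sets marked as binding related transcripts and 2 at 1.5-fold. It was 1 in N2 against N1, and 2 after quantile normalisation, with hybridisation controls, without the marked probe sets and at 1.5-fold. In N3 against N2 it was 0, and 1 with hybridisation controls, the second brightest and 1.5-fold. In N3 against ESC it was 3, and 1 with the second brightest and 5 at 1.5-fold. These counts pool higher and lower members. In EB against ESC the count was 3, as 2 higher and 1 lower. With the second brightest probe set it was 1 higher and 2 lower, and with equal medians 4 higher and 0 lower. Of these medians and counts, the other 75 moved by less than the SD between probe sets or, for counts, by no more than 1.5 times. Of the values for single members, 199 did so, 26 moved by more, and none that had passed 2-fold changed sign. Short of 2-fold in EB against ESC, SQLE went from 0.95 to -1.12 with the second brightest probe set, and FDFT1 from 0.53 to -0.41. DHCR7 has 1 probe set, so the choice of probe set could not change its values. For IDI1 in EB against ESC the ratio was 0.04 without the marked probe sets. Scaling to equal medians changed the share of all genes 2-fold higher in EB against ESC from 12.1% to 23.9% and lower from 11.8% to 5.98%. Scaling to hybridisation controls gave 13.8% higher and 0.691% lower in N1 against EB, and 1.71% and 23.3% in N2 against N1. Precision is limited by 1 array per stage. All member probe sets were well above the floor.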

Other observations

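APOE, the lipid carrier of brain and liver, read 9677 in ESC and 8583 in EB, then 8353 in N1 and 1819.8 in N2, and 2266 at N3, and was thus 4.59-fold lower in N2 than in N1, with all 3 of its probe sets lower in N2 and N3 than earlier. NPC2 read 26043 in ESC and 6086 in N3. NR1H2, a sterol-sensing nuclear receptor, was 2.92-fold lower in EB than in ESC. It read 811 in ESC and 278 in EB, then 341 in N1 and 283 in N2, and 477 at N3, alternating as DHCR7 did. CYP46A1, the neuronal enzyme that oxidises cholesterol for export from the brain, was 2.43-fold higher in N2 than in N1 (103 and 250.04), close to the floor. Among 7 measured fatty acid synthesis genes 0 passed 2-fold in EB against ESC by brightest probe set (median 0.10). Of all genes, 12.1% were higher and 11.8% lower. Dimmer probe sets passed it for ACLY, at 2155 in ESC and 769 in EB, and for ELOVL6, at 403 and 1136. In N3 against ESC, 2 of the 7 were at least 2-fold higher, where 17.2% of all genes were. FADS2, a desaturase, was 2.26-fold higher, and ACSS2, an acetyl-CoA synthetase, at least 4.14-fold higher, with ESC below the floor.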
